A study of Mus musculus with 20 samples.

Results

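The 49 genes described here are interferon-stimulated genes, which cells switch on when an interferon binds its receptor. They were chosen by name from the 25219 genes of the deposited table, and all 49 were found there and passed the filter on low counts in both tissues. Type I interferons, such as interferon beta, signal through the Ifnar1 and Ifnar2 receptor to a transcription complex that includes Stat2 and Irf9 and binds an interferon-stimulated response element in target promoters. Type II interferon, interferon gamma, signals through Ifngr1 and Ifngr2 and is read at a gamma-activated site, and many genes answer to both kinds. In adipose tissue interferon signaling is known from adipocytes as well as from the macrophages and lymphocytes that lie between them.

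RNA was measured by stranded mRNA sequencing in inguinal white adipose tissue (iWAT) and brown adipose tissue (BAT) from male animals, each tissue being represented by 5 Ai-α4KO and 5 Control libraries. Ai-α4KO mice lose α4, the protein of Igbp1 and a partner of PP2A-type phosphatases, in adipocytes, because tamoxifen activates an Adiponectin-CreERT2 recombinase in mice with floxed α4 alleles. Every mouse, Control included, received tamoxifen from 2 months of age, and tissue was taken 1 week after recombination. The study's methods describe Control mice as carrying the floxed alleles without the recombinase, whereas the labels give their genotype as WT, so any effect of the recombinase itself cannot be told apart from the loss of α4. The recombinase acts in adipocytes, while each library holds RNA of the whole tissue, in which fewer cells of a type and less RNA per cell cannot be told apart. The labels give each library as a sample of its own without saying whether mice were pooled or whether the same mice gave both tissues.

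Totals ran from 24023371 to 50384446 counts per library. Levels are in CPM, the usual depth-scaled count, after TMM normalization of all 20 libraries together. Igbp1 was at 67.3 ± 7.01 CPM in Control and 10.8 ± 0.395 CPM in Ai-α4KO iWAT, and at 93.9 ± 7.30 and 17.0 ± 4.83 CPM in BAT (SD, n = 5 each), without overlap. The adipocyte markers summed to at least 11272 CPM in every library, and the brown adipocyte markers to between 7317 and 11463 CPM in Control and between 1320 and 2739 CPM in Ai-α4KO BAT. Of the brown adipocyte markers Dio2 alone did not fall in BAT, at 31.7 to 160 CPM in Control and 96.0 to 198 CPM in Ai-α4KO libraries. Control iWAT libraries 1 and 4 stood apart with B cell markers at 446 and 178 CPM, against 5.56 to 7.47 CPM in the other Control iWAT libraries. Skeletal muscle markers summed to 6174 CPM in Control iWAT library 4 and 3399 CPM in Ai-α4KO iWAT library 1, against at most 159 CPM in the other iWAT libraries. They summed to between 10424 and 34654 CPM in Ai-α4KO BAT and to between 731 and 7551 CPM in Control BAT.

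The 49 genes were sorted by role. The type I list held 10 genes of the Ifit, Oas and Mx families, and the gamma-type list held 11 guanylate-binding protein (Gbp) and immunity-related GTPase (Irg) genes. The remainder were 6 transcription regulators, 3 RNA sensors, 3 genes of Isg15 conjugation and 16 other effectors. Many members lie beside relatives in the coordinates of the deposited table. Ifit1, Ifit2 and Ifit3 lie within chr19:34550694-34650009. Rsad2 at chr12:26442743-26456452 has Cmpk2 as its neighbour at chr12:26469215-26479837. Gbp2, Gbp3, Gbp5 and Gbp7 are on chromosome 3, Gbp4 and Gbp6 are on chromosome 5, and Irgm1, Irgm2, Igtp and Tgtp1 are on chromosome 11. Ifit3, Oas1a, Gbp6, Tgtp1 and Trim30a have near-identical relatives in the mouse genome, so that the sharing of reads between copies makes their counts less certain.

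Promoters of 37 of the 49 members were in a RefSeq table of the GRCm38.p6 assembly, each covering 250 bases before and 50 bases after a transcription start. The 6 below are shown because they carry the elements through which the type I and gamma signals are read, and because their genes lie at different ends of the responses described afterwards. Capitals mark matches, on either strand, to a GAAA followed after any 2 bases by another GAAA, the core of the interferon-stimulated response element (here the GAAA pair), and to TTCNNNGAA, the core of the gamma-activated site. Isg15 (chr4:156200769-156201068, minus strand), Ifit1 (chr19:34640639-34640938, plus strand) and Rsad2 (chr12:26456403-26456702, minus strand) carry response element matches. Gbp2 (chr3:142620413-142620712, plus strand) carries a response element match. Tgtp1 (chr11:48992197-48992496, minus strand) carries a match to each pattern side by side, and Irf1 (chr11:53769764-53770063, plus strand) only a gamma-activated site match.
Isg15: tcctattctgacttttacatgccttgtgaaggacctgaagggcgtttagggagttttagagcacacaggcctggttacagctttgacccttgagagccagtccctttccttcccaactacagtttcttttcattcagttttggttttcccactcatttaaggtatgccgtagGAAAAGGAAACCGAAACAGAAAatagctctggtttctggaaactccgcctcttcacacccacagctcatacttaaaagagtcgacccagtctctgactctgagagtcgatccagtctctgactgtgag
Ifit1: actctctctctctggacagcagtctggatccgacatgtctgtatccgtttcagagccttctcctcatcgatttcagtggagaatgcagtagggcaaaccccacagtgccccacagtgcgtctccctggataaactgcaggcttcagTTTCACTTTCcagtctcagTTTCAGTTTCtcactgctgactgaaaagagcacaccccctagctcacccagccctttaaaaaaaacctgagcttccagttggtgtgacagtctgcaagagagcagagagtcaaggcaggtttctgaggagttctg
Rsad2: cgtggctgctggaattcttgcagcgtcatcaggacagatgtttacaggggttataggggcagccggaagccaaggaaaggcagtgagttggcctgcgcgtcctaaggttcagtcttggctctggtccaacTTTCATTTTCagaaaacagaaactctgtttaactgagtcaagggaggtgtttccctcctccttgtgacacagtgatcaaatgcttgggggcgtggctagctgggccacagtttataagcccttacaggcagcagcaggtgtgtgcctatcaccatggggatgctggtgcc
Gbp2: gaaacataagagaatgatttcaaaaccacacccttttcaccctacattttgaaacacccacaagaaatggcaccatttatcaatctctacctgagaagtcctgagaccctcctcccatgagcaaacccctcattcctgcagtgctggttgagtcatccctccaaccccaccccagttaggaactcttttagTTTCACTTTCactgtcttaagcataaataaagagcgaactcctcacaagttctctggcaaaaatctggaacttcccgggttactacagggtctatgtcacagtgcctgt
Tgtp1: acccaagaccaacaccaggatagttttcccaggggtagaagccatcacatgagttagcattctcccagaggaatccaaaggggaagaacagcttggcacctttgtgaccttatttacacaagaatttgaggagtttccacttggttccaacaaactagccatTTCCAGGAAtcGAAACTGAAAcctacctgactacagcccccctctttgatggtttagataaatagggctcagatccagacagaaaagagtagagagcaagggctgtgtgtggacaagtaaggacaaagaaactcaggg
Irf1: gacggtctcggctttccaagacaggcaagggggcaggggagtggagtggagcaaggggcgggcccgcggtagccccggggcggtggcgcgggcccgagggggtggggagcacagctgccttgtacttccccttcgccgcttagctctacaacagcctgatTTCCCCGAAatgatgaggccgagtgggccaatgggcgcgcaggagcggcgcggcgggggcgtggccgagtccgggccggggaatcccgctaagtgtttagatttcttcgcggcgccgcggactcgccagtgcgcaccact
Over all 27025 genes with a promoter in that table, 3.99% had a GAAA pair and 9.55% a TTCNNNGAA match, counted on both strands and separately where the patterns overlapped. Among the members, 21 of 37 (56.8%) had the first and 13 of 37 (35.1%) the second. The GAAA pair was found in 8 of 8 gamma-type promoters and in 4 of 7 type I promoters. TTCNNNGAA was found in 5 of 8 gamma-type and 2 of 7 type I promoters. The Isg15 promoter held 3 overlapping GAAA pairs in a single run and the Ifit1 promoter held 2 apart from each other, while the windows of Oasl1, Irf5 and Ifitm1 held neither pattern. A match describes letters in this window and no binding was measured.

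Loss of α4 in adipocytes was accompanied by higher RNA of most interferon-stimulated genes in both tissues. To be called, a gene had to differ at least 2-fold and have an adjusted p below 0.01 by edgeR's quasi-likelihood test within its tissue, adjusted over all genes tested. In iWAT 34 of the 49 members were higher in Ai-α4KO than in Control, 0 were lower and 15 were not called, where 11.3% of all genes tested were called higher. In BAT 33 were higher, 0 were lower and 16 were not called, where 18.2% of all genes were called higher. The median log2 fold change of the members was 1.35 in iWAT and 1.64 in BAT, against 0.01 and -0.03 over all genes tested. With library size alone as the scaling, the median over all genes moved to 0.13 in iWAT and 0.23 in BAT and that of the members to 1.47 and 1.89, and genes called higher made up 72.0% of the calls in BAT instead of 57.8%, and 20.9% instead of 32.3% of those between Control tissues. In iWAT the Ai-α4KO libraries lay above all Control libraries for 38 members, where 20.7% of all genes did so. In BAT this held for 31 members, where 24.6% of all genes did so. Both tissues called 30 members higher, Stat2, Gbp5, Iigp1 and Eif2ak2 were called only in iWAT, Ifit3, Irf8 and Lgals3bp only in BAT, and 12 were called in neither.

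**Figure D1:**
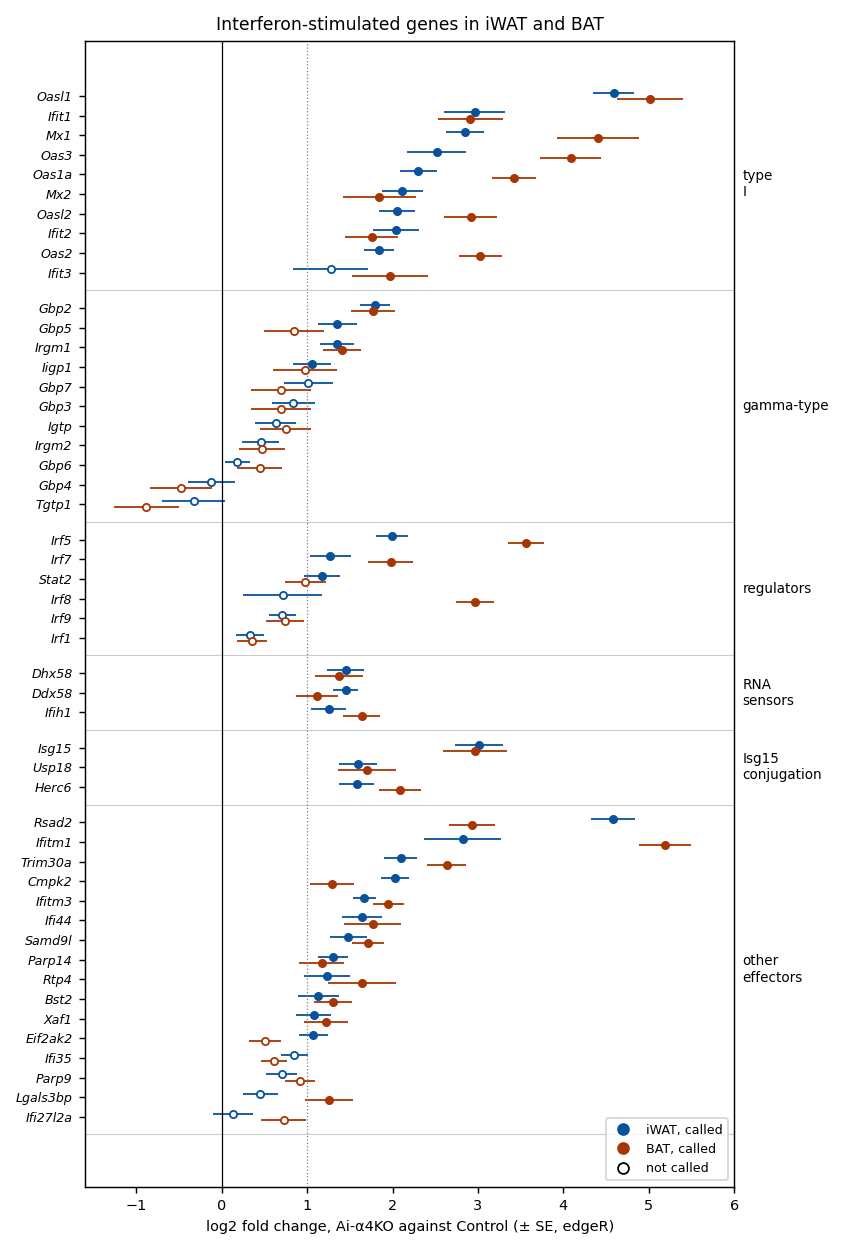
Log2 fold change of each of the 49 members in Ai-α4KO against Control, in iWAT (blue) and BAT (brown), grouped by role, with bars of 1 SE from edgeR and filled points where the gene was called. The dotted line marks a 2-fold change, which all 10 type I genes exceed in both tissues, while most gamma-type genes lie to its left.

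Markers of other cells moved with genotype beside these counts. All 8 macrophage markers were called higher in both tissues, and their sum was 917 to 1806 CPM in Control and 4500 to 5736 CPM in Ai-α4KO iWAT. In BAT the macrophage sum was 177 to 397 CPM in Control and 2298 to 4174 CPM in Ai-α4KO libraries. The monocyte sum was 130 to 213 CPM in Control and 787 to 1619 CPM in Ai-α4KO iWAT, and 19.4 to 52.3 and 524 to 839 CPM in BAT. The neutrophil sum, over 4 of 5 listed markers, was 18.6 to 82.8 and 136 to 447 CPM in iWAT, and 11.3 to 34.1 and 191 to 340 CPM in BAT. The sum of 7 adipocyte markers went the other way, from 20624 to 27779 CPM in Control to between 11272 and 15806 CPM in Ai-α4KO iWAT, and from 19620 to 22881 to between 12543 and 14880 CPM in BAT. Both NK cell markers were called higher in both tissues, with sums of 1.44 to 4.26 and 5.83 to 13.4 CPM in Control and Ai-α4KO iWAT and of 0.501 to 1.21 and 2.29 to 10.3 CPM in BAT. In BAT 3 of 5 T cell markers were called higher (sums of 2.08 to 4.01 and 13.0 to 51.8 CPM), as were both plasmacytoid dendritic cell markers (0.453 to 1.41 and 2.25 to 10.5 CPM). Cd4 alone held 9.85 to 36.1 CPM of the T cell sums in Ai-α4KO BAT. In iWAT no T cell marker was called and 1 B cell marker, Cd79a, was called lower, at -5.01 on the log2 scale, with Control libraries 1 and 4 holding T cell sums of 156 and 178 CPM against 6.30 to 45.6 CPM in the other iWAT libraries. The 3 fibroblast and progenitor markers were not called in either tissue, although their BAT sums stood apart, at 525 to 828.7 CPM in Control and 921 to 1297 CPM in Ai-α4KO libraries. Of 4 endothelial markers, 2 were called lower in iWAT (334 to 438 and 197 to 240 CPM) and 3 in BAT (630 to 863 and 235 to 303 CPM). Of 3 dendritic cell markers, Flt3 and Xcr1 were called higher and Zbtb46 lower in BAT, and 0 were called in iWAT. Their BAT sums overlapped, at 9.88 to 11.1 CPM in Control and 7.18 to 12.3 CPM in Ai-α4KO libraries. No marker on these lists was at 0 throughout a group. The part of these cells in the interferon-stimulated genes was not tested.

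All 10 type I genes gained RNA by the test in BAT and 9 of 10 did so in iWAT, with medians of 2.97 and 2.21 on the log2 scale, where 18.2% and 11.3% of all genes were called higher. The lowest and highest log2 fold changes were 1.28 and 4.59 in iWAT and 1.75 and 5.02 in BAT. Ai-α4KO libraries stood above all Control libraries for 9 of the 10 in iWAT and 8 of the 10 in BAT, where 20.7% and 24.6% of all genes did so.

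Oasl1 moved most in this list in both tissues. It is a relative of the oligoadenylate synthases without their activity and is known to hold back translation of Irf7. In Control iWAT it was at 8.24, 4.72, 7.55, 7.32 and 9.26 CPM in libraries 1 to 5, and in Ai-α4KO iWAT at 178, 246, 205, 127 and 142 CPM. In BAT the Control values were 3.55, 2.03, 1.13, 3.25 and 5.37 CPM and the Ai-α4KO values 142, 128, 93.2, 59.6 and 89.0 CPM. The lowest Ai-α4KO library was thus far above the highest Control library in each tissue. The log2 fold change was 4.59 in iWAT (SE 0.24, adjusted p = 1.26e-06, edgeR), the 36th highest of 14604 genes, and 5.02 in BAT (SE 0.39, adjusted p = 5.71e-07, edgeR), the 112th highest of 14344 genes.

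Ifit1, Ifit2 and Ifit3 encode proteins that bind foreign RNA and block its translation. Ifit3 had the smallest fold change of the list in iWAT. Its Control iWAT libraries held 29.8, 37.4, 47.7, 127 and 148 CPM and its Ai-α4KO iWAT libraries 207, 137, 270, 144 and 190 CPM. Control library 5 reached the Ai-α4KO range and library 4 lay just below it, and the log2 fold change of 1.28 (SE 0.44, adjusted p = 0.0284, edgeR) was not called. In BAT Ifit3 was at 18, 20.9, 16, 31.1 and 75.8 CPM in Control and 190, 83.8, 182, 75.5 and 121 CPM in Ai-α4KO libraries. Control library 5 just overlapped the lowest Ai-α4KO library, and the gene was called with a log2 fold change of 1.97 (SE 0.44, adjusted p = 0.00218, edgeR).

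Ifit2 had the smallest fold change of the list in BAT. Control BAT libraries held 12.2, 16.5, 9.93, 17.5 and 33.0 CPM and Ai-α4KO BAT libraries 68.8, 49.7, 83.0, 39.2 and 68.0 CPM. All Ai-α4KO values were above all Control values, and the log2 fold change was 1.75 (SE 0.31, adjusted p = 0.00042, edgeR). In iWAT Ifit2 was at 19.6, 18.3, 19.9, 30.6 and 34.1 CPM in Control and 78.3, 67.8, 165, 84.6 and 109 CPM in Ai-α4KO libraries, again without overlap. Its log2 fold change there was 2.04 (SE 0.27, adjusted p = 9.06e-05, edgeR). Ifit1 had a larger fold change than either in both tissues, at 23.3 ± 12.3 and 182 ± 51.0 CPM in Control and Ai-α4KO iWAT and at 16.6 ± 9.95 and 129 ± 49.3 CPM in BAT (SD, n = 5 each).

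The oligoadenylate synthases make the second messenger that activates the RNA-degrading enzyme RNase L. Oas1a, Oas2, Oas3 and Oasl2 rose by between 1.84 and 2.52 log2 units in iWAT and by between 2.91 and 4.08 in BAT. The dynamin-like GTPases Mx1 and Mx2 block incoming virus particles, although many laboratory strains carry inactive Mx alleles. Mx1 rose by 2.85 in iWAT and 4.41 in BAT, and Mx2 by 2.11 and 1.85, all on the log2 scale. In BAT the Mx2 groups overlapped through Control library 5.

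Fewer gamma-type genes were called. The Gbp and Irg proteins are GTPases that attack the vacuoles of intracellular microbes. In iWAT 4 of 11 were called higher (Gbp2, Gbp5, Irgm1 and Iigp1), where 11.3% of all genes were. The list median there was 0.84 on the log2 scale, with a range from -0.33 to 1.80. In BAT 2 of 11 were called higher (Gbp2 and Irgm1), with a median of 0.69 and a range from -0.88 to 1.78. The BAT share of 2 in 11 was no larger than the 18.2% of all genes called higher there. The Ai-α4KO libraries lay above all Control libraries for 5 of 11 in iWAT, where 20.7% of all genes did so, and for 2 of 11 in BAT, where 24.6% did so. Control BAT library 5 was the highest Control library for all 11 genes, and without it 7 of 11 were called higher in BAT, the list median was 1.22, and 40 of the 49 members were called higher instead of 33.

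Gbp2 led the list in both tissues. Control iWAT libraries held 84.4, 104, 101, 149 and 155 CPM and Ai-α4KO iWAT libraries 373, 439, 466, 373 and 418 CPM. In BAT it was at 68.5, 106, 57.1, 101 and 144 CPM in Control and 439, 323, 395, 218 and 297 CPM in Ai-α4KO libraries. Neither tissue showed any overlap. The log2 fold changes were close, at 1.80 in iWAT (SE 0.18, adjusted p = 1.35e-05, edgeR) and 1.77 in BAT (SE 0.26, adjusted p = 8.95e-05, edgeR).

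Gbp4 had the smallest absolute log2 fold change of the list in iWAT. Control iWAT libraries held 22.1, 16.6, 23.6, 49.1 and 32.2 CPM and Ai-α4KO iWAT libraries 17.1, 25.5, 31, 24.6 and 34.6 CPM. In BAT the values were 17.9, 21.9, 12.9, 26.8 and 59.5 CPM in Control and 18.5, 16.4, 25.3, 14.6 and 27.8 CPM in Ai-α4KO libraries. The groups overlapped almost wholly in iWAT, and in BAT the highest value of all was Control library 5. The log2 fold change was -0.12 in iWAT (SE 0.28, adjusted p = 0.739, edgeR) and -0.48 in BAT (SE 0.37, adjusted p = 0.273, edgeR). Over 22 alternatives in each tissue its sign was not fixed, its lowest and highest value being -0.26 and 0.16 in iWAT, -0.67 and 0.01 in BAT.

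Gbp6 was at 81.0, 80.3, 72.2, 99.4 and 107 CPM in Control and 103, 95.4, 113, 115 and 73.8 CPM in Ai-α4KO iWAT. In BAT it was at 40.2, 63.0, 41.1, 57.5 and 98.0 CPM in Control and 125, 64.9, 92.8, 64.8 and 71.9 CPM in Ai-α4KO libraries. Both pairs of groups overlapped, and neither log2 fold change was called, at 0.18 in iWAT (SE 0.15, adjusted p = 0.323, edgeR) and 0.44 in BAT (SE 0.26, adjusted p = 0.155, edgeR). Tgtp1, whose promoter carries both patterns, had the lowest log2 fold changes of all members, -0.33 in iWAT (adjusted p = 0.477, edgeR) and -0.88 in BAT (adjusted p = 0.0593, edgeR). In BAT it spanned 15.6 to 85.1 CPM in Control and 15.8 to 29.4 CPM in Ai-α4KO libraries, and without Control library 5 its log2 fold change was -0.40 (adjusted p = 0.221, edgeR), within a range of -1.09 to -0.40 over 22 alternatives.

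**Figure D2:**
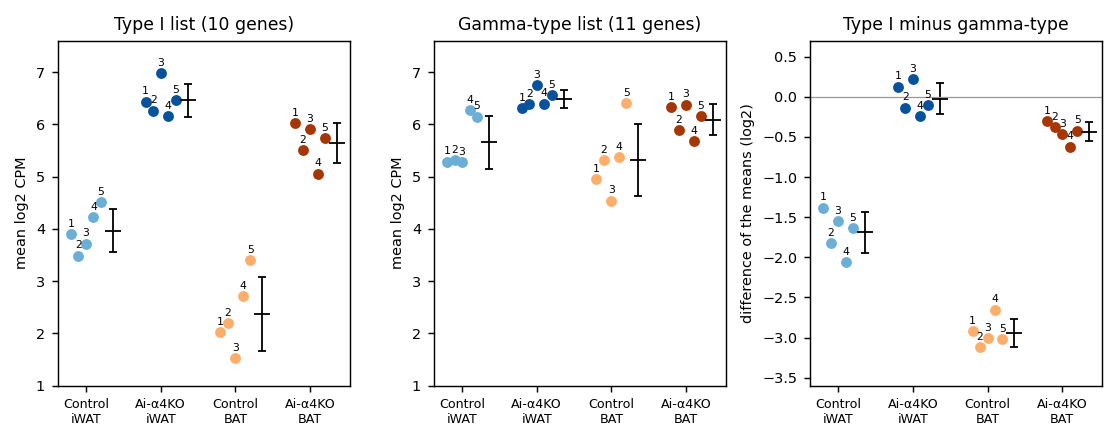
Mean log2 CPM of the 10 type I genes (left), of the 11 gamma-type genes (middle) and the difference of these means (right) in each library, with library numbers beside the points and the group mean with SD in black. The type I mean separates the genotypes in both tissues, the gamma-type mean does not in BAT, and the difference is higher in every Ai-α4KO library than in every Control library of its tissue.

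The list means were also taken within each library. The mean log2 CPM of the type I genes was 3.97 ± 0.40 in Control and 6.46 ± 0.32 in Ai-α4KO iWAT, and 2.38 ± 0.71 and 5.65 ± 0.38 in BAT (SD, n = 5 each). For the gamma-type genes it was 5.66 ± 0.51 and 6.48 ± 0.18 in iWAT, and 5.32 ± 0.70 and 6.09 ± 0.30 in BAT. The type I mean minus the gamma-type mean ran from -2.06 to -1.38 in Control and from -0.24 to 0.22 in Ai-α4KO iWAT, and from -3.12 to -2.65 in Control and from -0.62 to -0.30 in Ai-α4KO BAT. CPM is not divided by transcript length, so this difference compares libraries and does not rank the lists by level. It was higher in every Ai-α4KO library than in every Control library of the same tissue.

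Of the 6 regulators, Irf5 and Irf7 were called higher in both tissues, Stat2 only in iWAT and Irf8 only in BAT, and Irf1 and Irf9 in neither. Over all genes 11.3% were called higher in iWAT and 18.2% in BAT. Irf5, which acts downstream of Toll-like receptors and Myd88 in myeloid cells, moved most. Control iWAT libraries held 40.6, 21.2, 24.0, 25.8 and 25.6 CPM and Ai-α4KO iWAT libraries 96.1, 92.5, 131, 100 and 131 CPM. In BAT Irf5 was at 4.28, 6.1, 3.31, 7.09 and 5.13 CPM in Control and 56.8, 56.4, 71.0, 53.0 and 77.7 CPM in Ai-α4KO libraries. The groups lay well apart in each tissue, with log2 fold changes of 2.0 in iWAT (SE 0.19, adjusted p = 9.9e-06, edgeR) and 3.56 in BAT (SE 0.21, adjusted p = 1.07e-07, edgeR).

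Irf1, an early target of interferon gamma with a gamma-activated site match in the promoter shown, had the smallest change of this list. In iWAT it was at 71.8, 40.0, 68.3, 84.0 and 70.5 CPM in Control and 77.5, 96.8, 84.6, 83.6 and 80.3 CPM in Ai-α4KO libraries. In BAT it was at 50.1, 41.3, 36.8, 60.8 and 61.1 CPM in Control and 68.4, 68.1, 47.8, 62.0 and 81.8 CPM in Ai-α4KO libraries. The groups overlapped in both tissues, and the log2 fold changes of 0.33 (SE 0.17, adjusted p = 0.117, edgeR) and 0.35 (SE 0.18, adjusted p = 0.098, edgeR) were not called.

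Irf8 directs the development of macrophages, dendritic cells and B cells. In BAT it was at 4.45 ± 0.739 CPM in Control and 35.6 ± 10.6 CPM with α4 loss (SD, n = 5 each), and it rose by 2.96 on the log2 scale (adjusted p = 3.9e-07, edgeR). In iWAT Control library 1, the library with the highest B cell markers, held 67.2 CPM, above all Ai-α4KO libraries, and the log2 fold change of 0.71 was not called (adjusted p = 0.212, edgeR). Without that library it was 1.36 and passed (adjusted p = 0.00233, edgeR), and over 22 alternatives the value ran from 0.52 to 1.78 and the adjusted p from 2.86e-05 to 0.379. Irf7, the amplifier of type I interferon production, rose by 1.27 in iWAT and 1.98 in BAT on the log2 scale. Stat2 and Irf9, partners in the type I transcription complex, had log2 fold changes of 1.17 and 0.71 in iWAT and 0.98 and 0.74 in BAT. The Stat2 value in BAT (adjusted p = 0.00382, edgeR) lay just under the 2-fold limit. It was called under 11 alternatives, among them DESeq2, both limma fits and the omission of Control library 5 (1.23) or of Ai-α4KO library 4 (1.14), so that its absence from the BAT calls rests on the settings used.

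**Figure D3:**
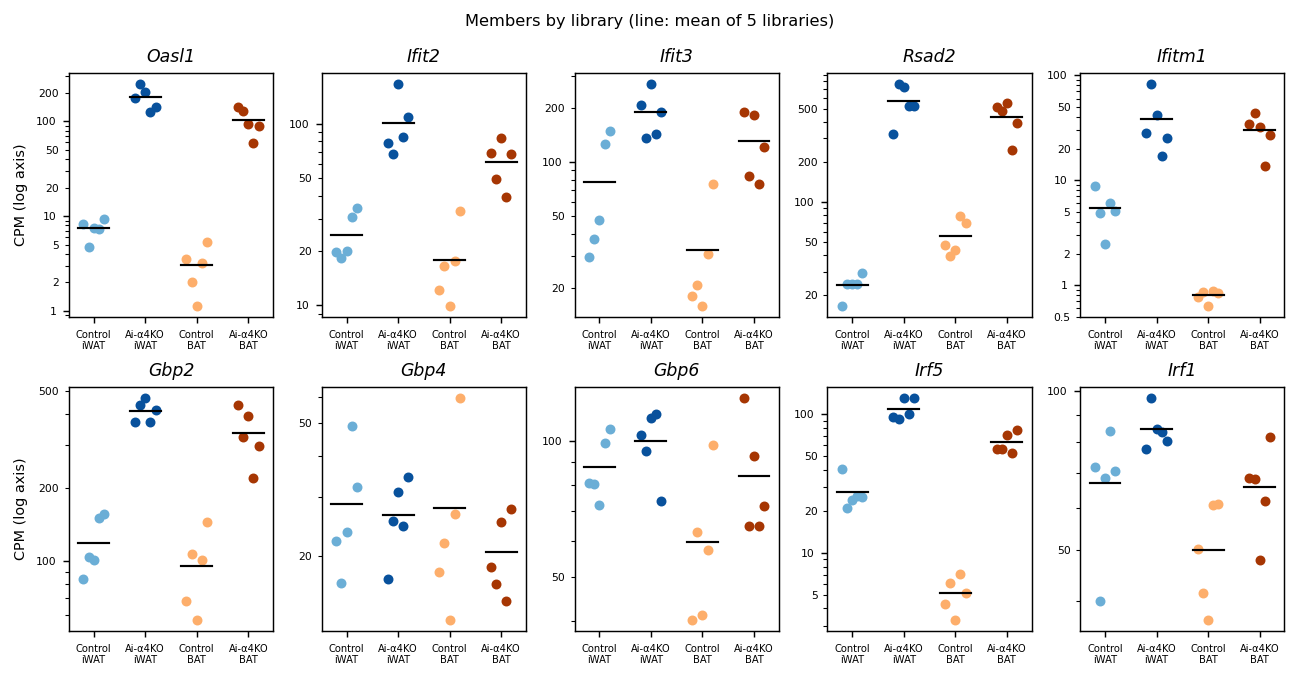
CPM in every library, on a log axis, of the genes described with all their values, for Control and Ai-α4KO iWAT and BAT, with the mean of 5 libraries as a line. Oasl1, Ifit2, Gbp2, Irf5, Rsad2 and Ifitm1 show no overlap between genotypes in either tissue, whereas Ifit3, Gbp4, Gbp6 and Irf1 overlap in both.

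The sensors of viral RNA Ifih1 (Mda5), Ddx58 (Rig-I) and Dhx58 (Lgp2) were called higher in both tissues, by 1.25 to 1.45 log2 units in iWAT and 1.12 to 1.64 in BAT. All 3 genes of Isg15 conjugation were called higher in both tissues. The shares of all genes called higher, beside both lists, were 11.3% in iWAT and 18.2% in BAT. Isg15, a ubiquitin-like protein attached to newly made proteins, was at 12.9, 9.14, 10.8, 18.8 and 25.2 CPM in Control iWAT and 127, 152, 145, 95.4 and 104 CPM in Ai-α4KO iWAT. In BAT it was at 11.2, 8.02, 4.99, 10.6 and 22.3 CPM in Control and 115, 88.2, 121, 49.7 and 86.3 CPM in Ai-α4KO libraries. No library of one genotype reached the other, and the log2 fold changes were 3.01 in iWAT (SE 0.28, adjusted p = 1.01e-05, edgeR) and 2.97 in BAT (SE 0.37, adjusted p = 2.72e-05, edgeR). Usp18, which removes Isg15 and also damps signaling at Ifnar2, rose by 1.60 and 1.70 log2 units in iWAT and BAT, and Herc6, the Isg15 ligase of the mouse, by 1.58 and 2.09.

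Among the 16 other effectors 12 were called higher in each tissue, beside 11.3% of all genes in iWAT and 18.2% in BAT. Rsad2, known as viperin, makes a nucleotide that stops viral RNA polymerases, and was the 37th highest of 14604 genes by log2 fold change in iWAT. It was at 16.6, 24.1, 24.4, 24.2 and 29.3 CPM in Control iWAT and 323, 761, 728, 524 and 520 CPM in Ai-α4KO iWAT. In BAT it was at 47.6, 39.2, 43.3, 79.1 and 69.1 CPM in Control and 518, 478, 553, 243 and 388 CPM in Ai-α4KO libraries. No overlap was seen, and the log2 fold change was 4.58 in iWAT (SE 0.26, adjusted p = 1.69e-06, edgeR) and 2.93 in BAT (SE 0.27, adjusted p = 2.21e-06, edgeR). Cmpk2, the nucleotide kinase beside it on chromosome 12, rose by 2.03 in iWAT and 1.29 in BAT on the log2 scale.

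Ifitm1, a membrane protein that hinders virus entry, was the lowest effector in Control BAT. Control BAT libraries held 0.774, 0.861, 0.634, 0.882 and 0.836 CPM and Ai-α4KO BAT libraries 34, 43.8, 32.0, 13.7 and 27.1 CPM. The Control BAT values rest on only 14 to 25 counts per library. In iWAT it was at 8.73, 4.82, 2.48, 6.02 and 5.04 CPM in Control and 27.9, 81.9, 41.5, 16.9 and 25 CPM in Ai-α4KO libraries. Both tissues were free of overlap, with a log2 fold change of 5.19 in BAT (SE 0.31, adjusted p = 1.03e-07, edgeR), the 88th highest of 14344 genes, and 2.82 in iWAT (SE 0.45, adjusted p = 0.000318, edgeR). Its relative Ifitm3 rose by 1.67 in iWAT and 1.95 in BAT.

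Trim30a, Ifi44, Samd9l, Parp14, Rtp4, Bst2 (tetherin, which holds virus particles at the cell surface) and Xaf1 were also called in both tissues, by 1.08 to 2.09 log2 units in iWAT and 1.17 to 2.63 in BAT. Eif2ak2 (PKR, the kinase that stops translation upon double-stranded RNA) was at 1.07 in iWAT, where it was called, and 0.51 in BAT, where it was not. Lgals3bp, a secreted glycoprotein, was called only in BAT, at 1.25 against 0.45 in iWAT. Ifi35, Parp9 and Ifi27l2a were called in neither. Ifi35 and Parp9 missed only the 2-fold limit, with adjusted p below 0.01 (edgeR) and no overlap in both tissues. Their log2 fold changes were 0.85 and 0.70 in iWAT and 0.61 and 0.92 in BAT. Ifi27l2a was at 727 CPM in Control and 798 CPM in Ai-α4KO iWAT on average, a log2 fold change of 0.13 (adjusted p = 0.667, edgeR), and 0.72 in BAT (adjusted p = 0.0323, edgeR).

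Levels of different genes were compared on the deposited FPKM, which divides by transcript length. Ifi27l2a had the highest mean level in all 4 groups, at 731 ± 237 FPKM in Control and 886 ± 140 FPKM in Ai-α4KO iWAT (SD, n = 5 each), and Ifitm3 came after it in each group. Isg15 went in iWAT from rank 17 to rank 6 of the 49, and in BAT from rank 12 to rank 6. In iWAT Rsad2 went from rank 40 to 7, in BAT from 14 to 7, and Oasl1 from 45 to 9 and from 44 to 10. Gbp4 and Tgtp1 ranked 49 and 46 in Ai-α4KO iWAT, and 47 and 46 in Ai-α4KO BAT. Mx2 and Oas3 stayed among the 4 lowest ranks in every group.

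**Figure D4:**
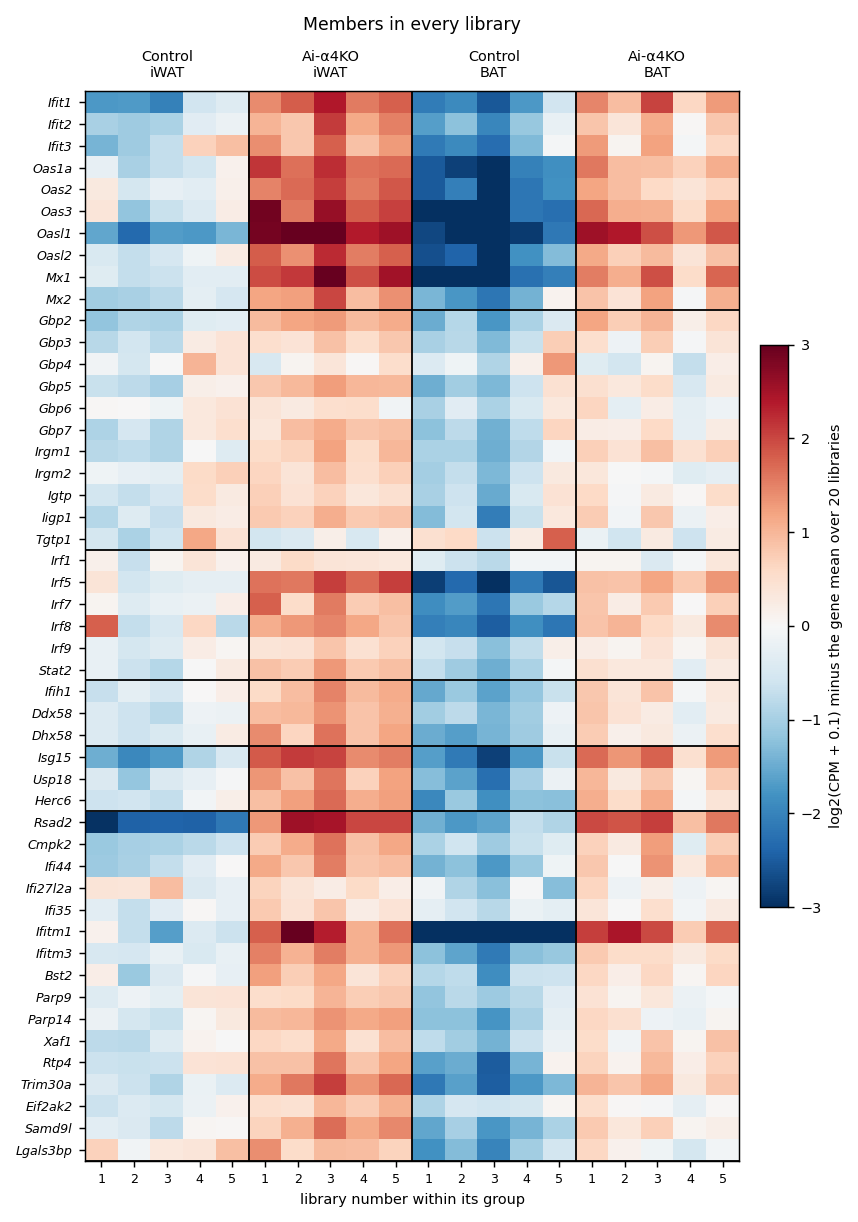
Log2(CPM + 0.1) of the 49 members in the 20 libraries, each gene centred on its mean over all libraries, with genes grouped by role in rows and libraries in columns. Ai-α4KO libraries are mostly above the mean (red) and Control BAT libraries mostly below it (blue), while Gbp6, Irf1 and Ifi27l2a show little contrast and Control BAT library 5 is paler than the other Control BAT libraries.

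The libraries of a group moved together across the members. Control BAT library 5 was the highest Control BAT library for 41 of the 49 genes and library 3 the lowest for 40. Ai-α4KO BAT library 4 was the lowest of its group for 41 genes, among them all 10 type I genes, and the same library had the highest skeletal muscle marker sum (34654 CPM against 10424 to 18998 CPM) and the lowest macrophage and monocyte sums (2298 and 524 CPM) of its group, whose part was not tested. Ai-α4KO iWAT library 3 was the highest of its group for 35. In Control iWAT, library 5 was highest for 28 genes and library 4 for 14.

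The effect of α4 loss was then compared between tissues by an interaction test in a fit of all 20 libraries, as the log2 fold change in BAT minus that in iWAT. It was called at an adjusted p below 0.01, which 3.26% of 15232 genes passed above 0 and 1.61% below 0, or 4.86% in either direction. Of the 49 members, Irf5 and Ifitm1 passed above 0 (4.08%) and Rsad2 below 0, shares close to those of all genes. The difference was 1.59 for Irf5 (SE 0.28, adjusted p = 0.00127, edgeR), 2.40 for Ifitm1 (SE 0.56, adjusted p = 0.00866, edgeR) and -1.62 for Rsad2 (SE 0.36, adjusted p = 0.00633, edgeR). Irf5 passed under all 31 alternatives. Ifitm1 lost the call under 16 of them and Rsad2 under 17, with adjusted p from 0.000133 to 0.0576 and from 0.000385 to 0.0355, and neither changed sign. For Irf5 and Ifitm1 the Control level was lower in BAT than in iWAT, and for Rsad2 it was higher, as the values above show. Of 8 macrophage markers, whose differences ran from 1.59 to 2.15, 7 also passed above 0. The part of macrophages in the member differences was not tested. Irf8 just missed the threshold with a difference of 2.28 (SE 0.55, adjusted p = 0.0104, edgeR) and was called under 13 alternatives, among them DESeq2 and the fit without Control iWAT library 1. Oas1a, Oas2, Oas3 and Mx1 had differences of 1.15 to 1.60 with adjusted p of 0.0137 to 0.0441 (edgeR) and were not called. No gamma-type gene was called, and their differences ran from -0.52 to 0.30.

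In Control mice most type I genes were lower in BAT than in iWAT, and no gamma-type gene was called in either direction. Of the 49 members, 15 were called higher in Control iWAT, where 15.4% of all genes were, and Rsad2 alone was called higher in Control BAT, where 7.34% of all genes were. The 15 included 6 of the 10 type I genes (Oas1a, Oas2, Oas3, Oasl1, Oasl2 and Mx1) and 0 of the 11 gamma-type genes. They also included Irf5, Irf7, Irf8, Herc6, Ifitm1, Ifitm3, Trim30a, Samd9l and Lgals3bp. The log2 difference of Control BAT from Control iWAT was -2.72 for Oas3 (adjusted p = 1.06e-05, edgeR), -2.52 for Mx1 (adjusted p = 2.89e-05, edgeR) and 1.23 for Rsad2 (adjusted p = 0.00053, edgeR). Gamma-type differences ran from -0.76 for Irgm2 to 0.59 for Tgtp1. The macrophage marker sum was also lower in Control BAT than in Control iWAT, at 177 to 397 against 917 to 1806 CPM, and its part was not tested. Without Control BAT library 5, 23 members were called higher in Control iWAT.

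Interferon genes themselves were hardly sequenced. Of 19 listed ligand genes, 14 had no count in any library, 17 had at most 3 counts in every library, and none passed the filter. Ifnb1, interferon beta, had 0 counts in each Control iWAT library and 3, 3, 10, 20 and 20 counts in the Ai-α4KO iWAT libraries. In BAT it had 0, 1, 0, 0 and 0 counts in Control and 6, 0, 6, 3 and 7 counts in Ai-α4KO libraries. The iWAT groups did not overlap (two-sided exact permutation test on CPM, p = 0.00794, the lowest p reachable with groups of this size), while the BAT groups met at 0 (exact permutation test, two-sided, p = 0.0476). Leaving out any of 9 of the 10 BAT libraries raised the BAT p to between 0.0794 and 0.0952 by the same exact test, and leaving out Ai-α4KO library 2, the one at 0, gave p = 0.0159. Ifng, interferon gamma, had 1 to 9 counts in Control and 4 to 12 in Ai-α4KO iWAT, and 0 to 4 and 2 to 9 in BAT, with no difference detectable at this depth (exact permutation test, two-sided, p = 0.444 and 0.0794).

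Of 6 receptor chains, 1 was called higher in each tissue, where 11.3% of all genes in iWAT and 18.2% in BAT were. This was Ifngr2, by 1.31 log2 units in iWAT and 1.99 in BAT, and 0 were called lower. Ifnar1 was at 0.70 and 0.35 and Ifngr1 at -0.18 and -0.75, not called. In BAT the Ai-α4KO libraries lay below all Control libraries for 1 chain, Ifngr1, and above them for 2. Of all genes there, 23.0% lay below and 24.6% above. Stat3 was called higher in BAT, at 1.14, and the kinases Jak1, Jak2 and Tyk2 were not called in either tissue.

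Inhibitors of the pathway were called higher for 4 of 6 genes in each tissue, beside 11.3% of all genes in iWAT and 18.2% in BAT. Socs3, a feedback inhibitor of cytokine receptors, rose by 2.64 in iWAT and 4.02 in BAT on the log2 scale. The phosphatase Ptpn6, which is abundant in leukocytes, rose by 1.59 and 3.74, and Ptpn1 by 1.16 and 1.28. Ptpn2 was called only in iWAT, at 1.10, and Socs1 only in BAT, at 2.55.

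Of 13 genes that sense nucleic acids or pass on that signal, 7 were called higher in both tissues (Mb21d1, Tmem173, Ikbke, Zbp1, Tlr7, Tlr9 and Myd88) and 0 lower, beside the same shares of all genes, 11.3% and 18.2%. Mb21d1 (cGAS) rose by 2.31 and 2.19 and its partner Tmem173 (STING) by 1.77 and 2.74 log2 units in iWAT and BAT. Zbp1, a sensor of left-handed nucleic acids, rose by 2.51 and 4.37. Mavs, the adaptor of Rig-I and Mda5, was at -0.78 and -0.89 and Irf3 at -0.30 and -0.55, not called. The Ai-α4KO libraries lay above all Control libraries for 11 of the 13 genes in iWAT and 8 in BAT. They lay below all Control libraries for Mavs in iWAT and for Mavs and Irf3 in BAT. Of all genes, 20.7% and 24.6% lay above and 18.3% and 23.0% below.

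Further targets usually read as gamma-type gave a divided picture. Cxcl10, a chemokine for lymphocytes, was at 2.13 ± 0.503 CPM in Control and 357 ± 79.6 CPM in Ai-α4KO iWAT, and at 7.38 ± 5.62 and 184 ± 44.0 CPM in BAT (SD, n = 5 each). Its log2 fold changes were 7.38 (adjusted p = 4.98e-08, edgeR) and 4.61 (adjusted p = 1.93e-05, edgeR). Cxcl11 rose by 3.45 in iWAT and did not pass the filter in BAT. Cxcl9, the chemokine of this family most closely tied to interferon gamma, was at 60.6 ± 18.7 and 72.1 ± 10.8 CPM in iWAT and 57.2 ± 19.7 and 62.8 ± 24.9 CPM in BAT, with log2 fold changes of 0.24 and 0.10 that were not called. In BAT Ciita, the master regulator of MHC class II genes, rose by 2.69 and Nlrc5, its class I counterpart, by 1.2. In all 2 of 9 genes tested were called higher in iWAT and 3 of 9 in BAT, with 0 lower, beside 11.3% and 18.2% of all genes. The Ai-α4KO libraries lay above all Control libraries for 3 of 9 in iWAT and for 7 of 9 in BAT. Of all genes, 20.7% and 24.6% did so.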

How the data were processed

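Stranded mRNA libraries (TruSeq, paired 150 bp reads) of iWAT and BAT were compared between Control and Ai-α4KO mice in 4 groups of 5. The deposited table gives, per gene and library, an expected count made by the authors from aligned reads, which need not be whole, and an FPKM value that the authors scaled by depth and transcript length. The submitters' processing notes name bcl2fastq 2, STAR 2.5.3a and mm10, and the counting tool is not given in the sources used here. Totals of 24023371 to 50384446 counts per library left every member above the filter on low counts. Precision is given by the SD or SE over libraries, and the interferon ligands, at 20 or fewer counts per library, are shown as counts. Nothing in the labels says that libraries came from separate mice, so p-values measure the spread between these samples.

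Expected counts were rounded to whole numbers, filtered with filterByExpr, normalized by TMM and tested with edgeR 4.0.16 (R 4.3.3), per tissue for genotype and over all 20 libraries for the interaction and for Control tissues. P-values were adjusted by Benjamini-Hochberg over all genes tested. Fold changes come from the per-tissue fits and differ slightly from ratios of the printed CPM. Log2 CPM for list means used a prior count of 2. Alternatives were DESeq2 1.42.0, limma 3.58.1 on log2(FPKM + 1) and log2(FPKM + 0.1), other normalizations and filters, an adjusted p below 0.05, another choice of libraries in the fit, a replicate block, Control iWAT libraries 1 and 4 left out, and each library left out in turn. Single values used exact permutation tests (Python 3.11.15, SciPy 1.17.1). The fits were tested on simulated data.

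The members and lists were chosen with earlier results of these data known. Every library's value is given for the genes with the largest and the smallest absolute log2 fold change among type I genes, gamma-type genes and regulators in each tissue, and for members past the interaction threshold. Isg15 was added after its values were seen. Other members are given by range and count. 1 gene of the pathway list is not reported here.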

Additional observations from a re-analysis of the deposited data

Results flagged for a closer look

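In 196 groups of 5 libraries (49 members in 4 groups), 5 had a library farther from its neighbours than Dixon's limit of 0.71 of the group's range, and chance alone gives about 1 such group in 20. Gbp5 was at 15.6 CPM in Ai-α4KO BAT library 4, the lowest of its group, with the next at 26.2 CPM. Stat2 in the same library was at 46.7 CPM against 69.9 CPM for the next. Stat2 was also set apart in Ai-α4KO iWAT library 3, at 144 CPM against 109 CPM for the next highest. Irf1 was at 40.0 CPM in Control iWAT library 2, with the next lowest at 68.3 CPM, and Bst2 at 27.6 CPM in Control BAT library 3, with the next lowest at 55.7 CPM.

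In the interaction test 3 of 49 members were called, a share close to the 4.86% of all genes called. The BAT minus iWAT difference of log2 fold changes was 1.59 for Irf5, 2.40 for Ifitm1 and -1.62 for Rsad2. Irf5 was called under all 31 alternatives, whereas Ifitm1 lost the call under 16 and Rsad2 under 17.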

How the results depend on the processing

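No called member changed sign under any alternative run. Of the 34 members called in iWAT, 30 were called under every alternative that tested them, and of the 33 in BAT, 31 were. Mx1 in BAT was not tested with a minimum of 10 counts in every library. Bst2, Eif2ak2, Iigp1 and Xaf1 in iWAT and Ddx58 and Rtp4 in BAT lost the call under at least 1 alternative. Without 1 library, 32 to 37 members were called higher in iWAT and 32 to 40 in BAT, type I genes 9 to 10 and 10 to 10, and gamma-type genes 3 to 6 and 2 to 7, the 7 without Control BAT library 5.

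The interaction counts moved as well. Against 2 members above 0 in the reported fit, DESeq2 gave 7, an adjusted p below 0.05 gave 7, upper-quartile normalization, DESeq2 size factors and a minimum of 10 counts gave 4 each, limma on either FPKM scale gave 1, and leaving out 1 library gave 1 to 3. Against 1 below 0, library size alone, both limma fits, the replicate block and leaving out Control iWAT libraries 1 and 4 gave 0, and leaving out 1 library 0 to 1. Over all genes, the 496 above 0 became 1258 with DESeq2 and 1429 at an adjusted p below 0.05, and 308 to 853 without 1 library. The 245 below 0 became 390 with DESeq2, 116 with library size, 148 with upper-quartile normalization, 130 without a filter, 127 with a minimum of 10 counts, 868 at an adjusted p below 0.05, 132 with limma on log2(FPKM + 0.1), 68 without Control iWAT libraries 1 and 4, and 93 to 264 without 1 library. Genes above 0 were 66.9% of these calls in the reported fit and 83.9% with library size, 80.9% with upper-quartile normalization and 77.5% with DESeq2 size factors.

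Genes lower in Ai-α4KO numbered 1559 in iWAT and 778 with limma on log2(FPKM + 1). In BAT they numbered 1912, and 1265 with library size, 807 with limma on log2(FPKM + 1) and 1202 with limma on log2(FPKM + 0.1). Between Control tissues both limma fits called 0 members higher in BAT, limma on log2(FPKM + 1) called 542 genes higher in BAT and 1293 higher in iWAT against 1118 and 2345, and 13 to 23 members were higher in iWAT without 1 library. The Ifnb1 difference in BAT was 0.118 to 0.182 CPM without 1 library, against 0.144. The cause of these shifts was not tested.

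Replicate numbers were not treated as pairs. Same-numbered Control and Ai-α4KO libraries deviated together with correlations of -0.451 to 0.134 in iWAT and -0.148 to 0.216 in BAT. For same-numbered iWAT and BAT libraries the correlations were -0.081 to 0.22 in Control and -0.265 to 0.243 in Ai-α4KO. In each genotype 2 iWAT libraries matched the BAT library of their own number best. Whether the tissues shared mice cannot be told from these values. With the replicate block, 35 members were called higher in iWAT and 34 in BAT. The interaction could not be fitted with another choice of libraries.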
